A study of Mus musculus with 8 samples.

Results

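The red cell membrane is a lipid bilayer held in shape by a protein network on its inner face. Spectrin forms the strands of that network, ankyrin and protein 4.2 tie it to the anion exchanger band 3, and short actin filaments with dematin and other proteins knit the strands together. In humans, inherited defects of ankyrin-1, beta-spectrin, band 3 or protein 4.2 give round, fragile red cells. The liver of a newborn mouse still makes red cells, so transcripts of their precursors are measured together with those of hepatocytes. The group described here holds 8 genes of this structure, namely Sptb, Ank1, Epb42, Dmtn, Slc4a1, Rhag, Gypc and Ermap. All probe sets that the array annotation pairs with exactly 1 of these symbols were taken, which gave 17 probe sets of the 45037 tested. Each gene was represented by its brightest probe set, judged on the mean of all 8 arrays, so the 8 genes are 8 of 18193.

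Livers of 4 Mfp2 -/- mice and 4 wild type mice, all 2 days old, were measured on Affymetrix arrays, 1 array per mouse. Mfp2 is an enzyme of peroxisomes that breaks down very long and branched fatty acids and trims bile acid precursors, and Hsd17b4 is its gene. The labels give neither strain nor sex, nor do they say which tissues lack the enzyme beyond the genotype itself. The question was how the liver transcripts of the knockout differ from wild type.

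The values are on the log2 scale as deposited, so a difference of 1 is a factor of 2, and differences are knockout minus wild type. The 8 array medians lay between 3.68 and 3.73, and a probe set near or below them is not shown to be above background. Hsd17b4 lay between 3.25 and 4.29 in knockout livers and between 8.15 and 8.97 in wild type livers, so each array matched its label. Hepatocyte markers were high in every liver, with a mean over 12 genes of 11.48 to 11.72 in the knockout, against 11.41 to 11.57 in wild type. The mean of 3 Y-linked genes was 2.23 and 2.50 in knockout livers 1 and 2 and 5.35 and 4.96 in knockout livers 3 and 4. It was 2.04 in wild type liver 3 and between 4.59 and 5.36 in the other wild type livers, so the sexes were not balanced between the groups. Arrays give no read depth, and their number, 4 against 4, limits the precision.

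Promoter sequences are shown for Epb42, Ermap, Sptb and Rhag, because only these members had an entry in the RefSeq promoter table used here. Each run is the 250 bases before the annotated start on GRCm38.p6, 5′ to 3′ on the gene's own strand. Capitals mark AGATAA or TGATAA, letters bound by GATA factors such as the erythroid regulator GATA1, and CCACCC, bound by factors such as the erythroid KLF1, each on either strand. The windows are chr2:121036878-121037127 on the minus strand for Epb42, chr4:119189996-119190245 on the minus strand for Ermap, chr12:76710548-76710797 on the minus strand for Sptb and chr17:40810899-40811148 on the plus strand for Rhag.
Epb42: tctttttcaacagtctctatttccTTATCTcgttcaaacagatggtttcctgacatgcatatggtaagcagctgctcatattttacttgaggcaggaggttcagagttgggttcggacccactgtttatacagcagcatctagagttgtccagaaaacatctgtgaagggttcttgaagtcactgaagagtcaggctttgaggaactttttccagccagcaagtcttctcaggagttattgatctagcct
Ermap: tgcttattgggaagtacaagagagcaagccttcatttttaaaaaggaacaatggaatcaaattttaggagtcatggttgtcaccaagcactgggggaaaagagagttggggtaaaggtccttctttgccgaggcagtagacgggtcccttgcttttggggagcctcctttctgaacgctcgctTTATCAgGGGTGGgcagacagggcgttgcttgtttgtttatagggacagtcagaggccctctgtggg
Sptb: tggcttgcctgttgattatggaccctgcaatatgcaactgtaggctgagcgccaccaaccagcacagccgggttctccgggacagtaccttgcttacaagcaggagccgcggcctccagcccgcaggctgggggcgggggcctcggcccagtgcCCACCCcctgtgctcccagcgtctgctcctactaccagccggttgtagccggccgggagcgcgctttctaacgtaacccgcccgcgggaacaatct
Rhag: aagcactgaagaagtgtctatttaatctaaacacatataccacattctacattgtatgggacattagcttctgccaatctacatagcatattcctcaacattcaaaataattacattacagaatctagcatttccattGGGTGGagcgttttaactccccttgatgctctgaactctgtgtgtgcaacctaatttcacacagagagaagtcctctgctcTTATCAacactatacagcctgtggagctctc

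AGATAA or TGATAA was found in 3 of the 4 windows, against 16.6% of the 32851 promoter windows of the same length in the table. The match in Epb42 is AGATAA, 226 to 221 bases before the start, while those in Ermap and Rhag are TGATAA, 67 to 62 and 31 to 26 bases before it. CCACCC was found in 3 of the 4 windows, those of Ermap, Sptb and Rhag, against 28.1% of all windows. In Ermap it lies 60 to 55 bases before the start, with 1 base between it and the TGATAA match. These matches describe the letters of the windows and are not shown to be bound.

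Each of the 8 genes had a lower mean in knockout livers, by 1.69-fold in Ermap to 2.39-fold in Dmtn. Ank1, Dmtn, Ermap and Rhag fell past the threshold, an adjusted p under 0.05 over all 45037 probe sets in limma. That is 4 of 8 genes, where 0.841% of all 18193 genes were called lower. The median difference of the 8 was -0.99, or 1.98-fold, against a median of 0.01 over all genes. In 7 of the 8, all but Sptb, every knockout liver lay below every wild type liver, a separation in the lower direction that 5.02% of all genes showed, where 3.59% were separated in the higher direction, as 0 of the 8 were. In bulk liver, fewer red cell precursors and less of these RNAs per precursor cannot be told apart.

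**Figure D1:**
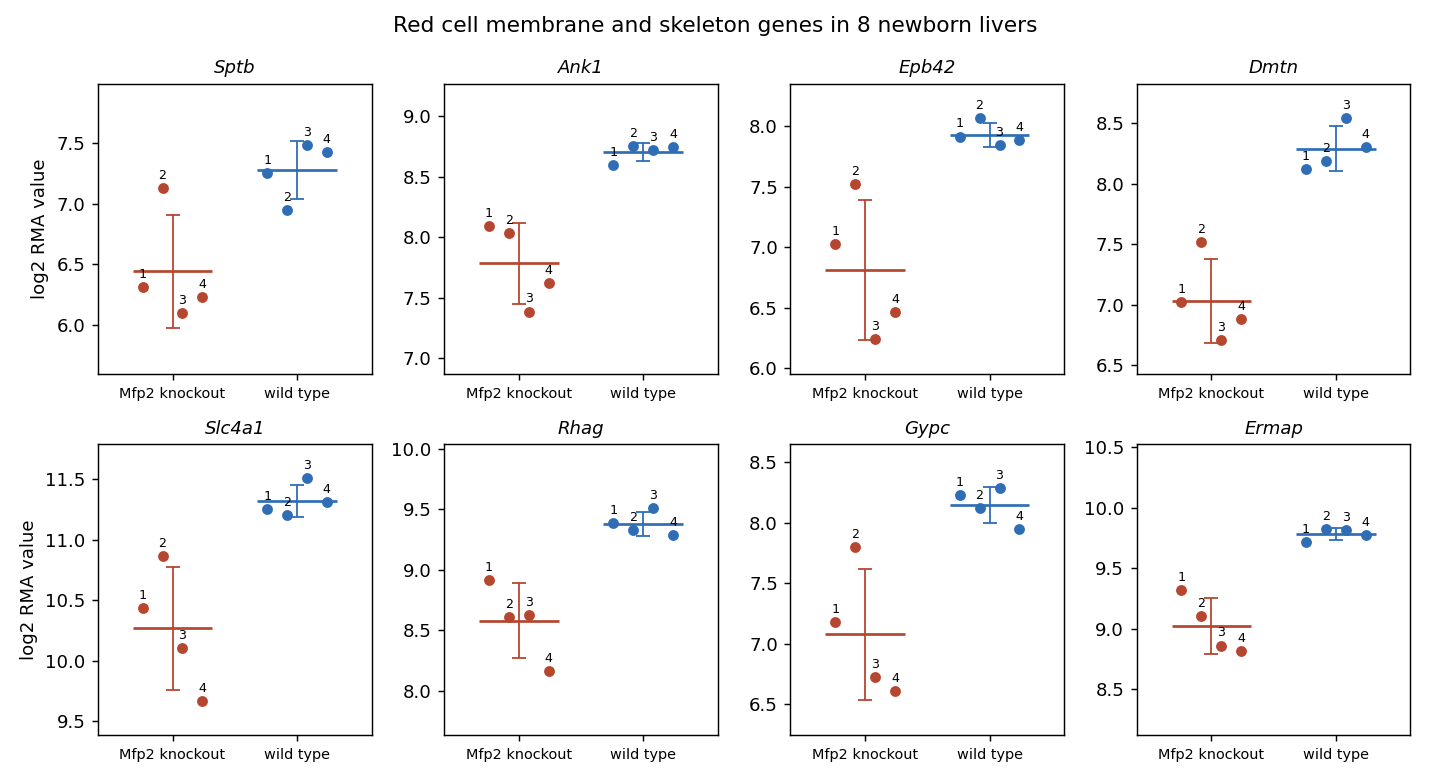
Log2 values of the probe set that stands for each of the 8 genes, in 4 Mfp2 knockout livers (left, red) and 4 wild type livers (right, blue). Points carry the replicate number, horizontal lines are group means, vertical bars are the SD over 4 livers, and every panel spans the same number of log2 units. Knockout livers 3 and 4 lie lowest in most panels and the wild type livers lie close together.

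The spectrin and ankyrin scaffold came first in the comparison. Sptb encodes beta-spectrin of red cells, a part of the strands of the network. Its values were 6.31, 7.13, 6.10 and 6.23 in knockout livers 1 to 4, against 7.25, 6.95, 7.48 and 7.42 in wild type livers 1 to 4. Knockout liver 2 lay above wild type liver 2, so the groups overlapped, and the other 3 knockout livers lay below all wild type livers. The difference of -0.83 ± 0.22 (SE) did not pass in limma, with an adjusted p of 0.134 and a 95% confidence interval of -1.32 to -0.35.

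Ankyrin-1, the product of Ank1, is the adaptor between spectrin and band 3. Ank1 measured 8.09, 8.03, 7.38 and 7.62 in knockout livers 1 to 4, against 8.59, 8.75, 8.72 and 8.74 in wild type livers 1 to 4. The wild type livers spanned only 0.16 on the log2 scale and the knockout livers 0.70, with all 4 below the wild type range. Ank1 fell by 0.92 ± 0.15 (SE), or 1.89-fold, with a limma adjusted p of 0.0391.

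Protein 4.2, from Epb42, resembles a transglutaminase without its enzyme activity and sits on the band 3 and ankyrin complex. Knockout livers 1 to 4 had Epb42 values of 7.03, 7.52, 6.24 and 6.47, against 7.92, 8.06, 7.84 and 7.89 in wild type livers 1 to 4. The groups did not overlap, and knockout livers 3 and 4 were the furthest below wild type. With a knockout SD of 0.58 against 0.10 in wild type, the difference of -1.11 ± 0.24 (SE) had a limma adjusted p of 0.0749 and did not pass.

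Dematin, encoded by Dmtn, bundles actin at the junctions of the network. It had the largest difference of the 8 genes. Dmtn measured 7.03, 7.52, 6.71 and 6.88 in knockout livers 1 to 4, against 8.12, 8.19, 8.54 and 8.31 in wild type livers 1 to 4. A gap of 0.61 separated the highest knockout liver from the lowest wild type liver, the widest gap among the 8 genes. The fall was 1.26 ± 0.17 (SE), with a limma adjusted p of 0.0255 and a 95% confidence interval of -1.64 to -0.88.

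Band 3, the product of Slc4a1, exchanges chloride for bicarbonate across the membrane and anchors the network to it. Slc4a1 had values of 10.43, 10.86, 10.10 and 9.66 in knockout livers 1 to 4, against 11.25, 11.21, 11.51 and 11.31 in wild type livers 1 to 4. All knockout livers lay below all wild type livers, with knockout liver 4 the lowest. The difference was -1.05 ± 0.22 (SE), or 2.07-fold, and did not pass in limma, with an adjusted p of 0.0654.

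Rhag, the Rh-associated glycoprotein, is a membrane channel for ammonia that red cells need to carry Rh proteins. It measured 8.91, 8.61, 8.62 and 8.16 in knockout livers 1 to 4, against 9.39, 9.33, 9.51 and 9.28 in wild type livers 1 to 4. Here knockout liver 4 stood lowest, and knockout livers 2 and 3 were nearly equal. Rhag fell by 0.80 ± 0.15 (SE), or 1.74-fold, with a limma adjusted p of 0.0480, close to the threshold.

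Glycophorin C, from Gypc, spans the membrane and holds protein 4.1 at the network's junctions. Gypc values were 7.18, 7.80, 6.72 and 6.61 in knockout livers 1 to 4, against 8.23, 8.12, 8.29 and 7.95 in wild type livers 1 to 4. The groups came within 0.15 of each other, since knockout liver 2 nearly reached wild type liver 4. A difference of -1.07 ± 0.23 (SE) had a limma adjusted p of 0.0749 and did not pass.

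Ermap encodes an erythroid membrane protein of the butyrophilin type that carries the Scianna blood group in humans. In knockout livers 1 to 4 it measured 9.32, 9.10, 8.86 and 8.82, against 9.71, 9.83, 9.82 and 9.77 in wild type livers 1 to 4. The wild type livers lay within 0.11 of each other and all 4 knockout livers lay below them. Ermap fell by 0.76 ± 0.12 (SE), the smallest difference of the 8 genes, with a limma adjusted p of 0.0366.

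The 9 probe sets not used above give further readings of 5 of the genes. Of all 17 probe sets, 6 were lower past the threshold, where 0.564% of the 45037 probe sets were, and 0 were higher in limma. At an unadjusted p under 0.05 there were 15 lower and 0 higher, against 2947 lower and 2327 higher of all 45037. The groups did not overlap, with the knockout lower, in 13 of the 17, against 3.81% of all probe sets, and in 0 with the knockout higher, against 3.09%. Dmtn was lower in a second probe set, 1438189_s_at, with values of 3.66 to 4.23 in the knockout, against 5.12 to 6.09 in wild type. That difference, -1.65 ± 0.20 (SE) with a limma adjusted p of 0.0204, is the largest of the 17, and its knockout mean of 4.00 lies near the array medians, so it can be understated. The third probe set of Dmtn, 1445439_at, overlapped between the groups at -0.49 ± 0.15.

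For Slc4a1 a second probe set, 1434502_x_at, passed at -0.95 ± 0.17 (SE) with a limma adjusted p of 0.0441. Leaving out any 1 of the 8 arrays ended that call, at limma adjusted p values between 0.0529 and 0.162. Its name marks probes that may also bind other transcripts. The third, 1431743_a_at, had values of 5.42 to 7.13 in the knockout, against 7.26 to 7.78 in wild type, and its difference of -1.42 ± 0.33 had an adjusted p of 0.0909 in limma. The second probe set of Epb42, 1417337_at, lay between 5.82 and 7.01 in knockout livers and between 7.59 and 7.74 in wild type livers. It differed by -1.19 ± 0.25, close to the first probe set of that gene, and did not pass either.

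Some probe sets did not follow the one that stands for their gene. Ank1 probe set 1425677_a_at had a difference of -0.89 ± 0.21 (SE), much like the main one, and did not pass. Probe set 1452512_a_at was at -0.64 ± 0.18, also not past the threshold, with a mean of 3.25 over all arrays, below the array medians, and knockout values of 2.75 to 3.14. The last one of Ank1, 1443291_at, was at 0.02 ± 0.14 and overlapped between the groups, with a mean of 3.57 over all arrays, also below the array medians. Neither of these 2 dim readings of Ank1 is shown to be above background. Sptb probe set 1455226_at was at 0.19 ± 0.14, also overlapping, with values of 4.31 to 4.68 in the knockout, against 3.91 to 4.43 in wild type. Its mean of 4.33 lies above the array medians. With a 95% confidence interval of -0.11 to 0.50, it does not show the lower level read by the brighter probe set of Sptb. The sources used here do not give the place of these probes in the transcripts.

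**Figure D2:**
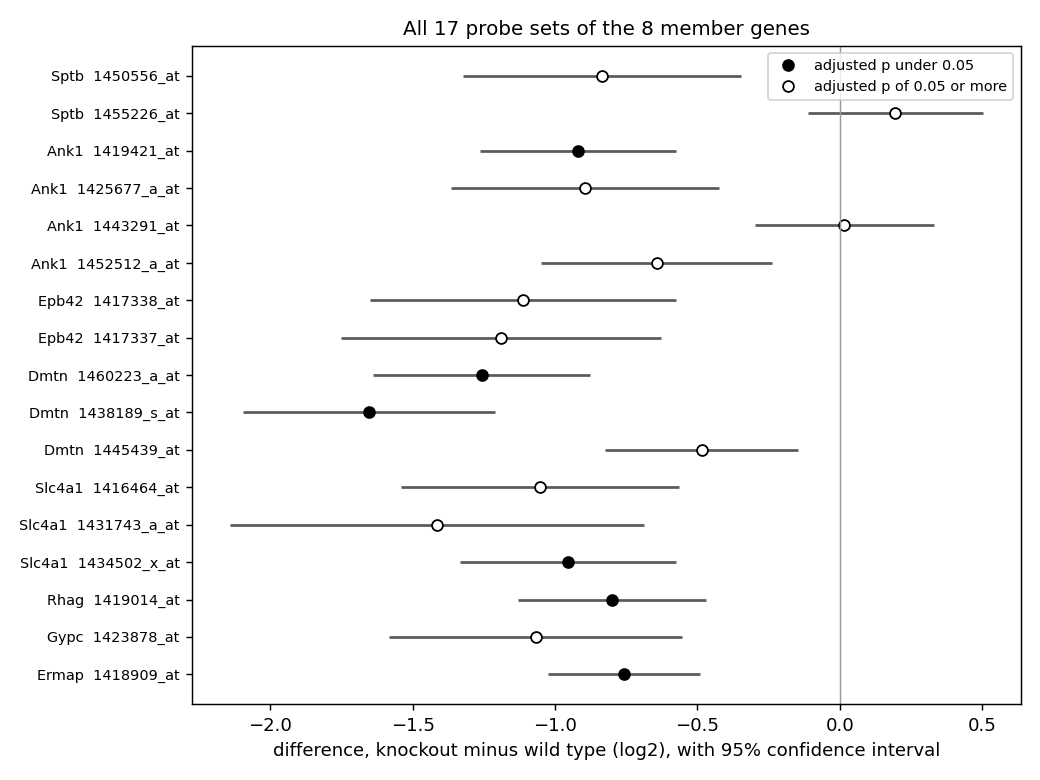
Differences between Mfp2 knockout and wild type livers (log2, horizontal axis) for the 17 probe sets of the 8 genes, with 95% confidence intervals from limma. Filled points passed the threshold over all probe sets. 15 intervals lie below 0, and those of Sptb 1455226_at and Ank1 1443291_at include 0.

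The knockout livers varied more than the wild type livers in each of the 8 genes. Their SD was 0.23 in Ermap to 0.58 in Epb42, against 0.05 in Ermap to 0.24 in Sptb for wild type. Over all genes 51.8% had a larger SD in the knockout. In lists described below it was larger in 24 of 26 other red cell membrane genes, 13 of 17 erythroid markers and 11 of 14 erythroid regulators. It was also larger in 8 of 9 neutrophil, 6 of 7 stellate, 5 of 7 endothelial and 3 of 4 bile duct genes. The counts were 8 of 12 hepatocyte, 6 of 9 macrophage and 7 of 11 cell cycle genes. They were 8 of 19 relatives outside red cells, 2 of 7 megakaryocyte and 1 of 7 B cell precursor genes. The 8 genes were read in the same livers, so they are not separate readings of the spread. Knockout liver 3 was the lowest knockout liver in 4 of the 8 genes and knockout liver 4 in the other 4, while knockout liver 2 was the highest in 5 and knockout liver 1 in 3. The mean of the 8 genes was 8.04, 8.32, 7.59 and 7.56 in knockout livers 1 to 4, against 8.81, 8.80, 8.96 and 8.83 in wild type livers 1 to 4. limma uses 1 variance for both groups, which bears on the p-values given here.

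Within the arrays of replicates 1 and 2 the median difference of the 8 genes was -0.60, and within those of replicates 3 and 4 it was -1.37. Knockout livers 1 and 2, the higher ones, are those low in Y-linked genes. The wild type liver low in Y-linked genes, number 3, had the highest mean of the 8 genes among wild type livers. With the Y-linked mean as a covariate the median difference was -1.06 and 7 of the 8 genes passed in limma, all but Sptb. Over all probe sets 527 passed in that fit, against 343 without the covariate. In the knockout the Y-linked level and the replicate numbers, 1 and 2 against 3 and 4, coincide and cannot be told apart. Whether sex has a part in these differences was not tested.

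The number of genes called depended on single arrays. Where 4 of 8 passed with all arrays, 0 passed in limma without knockout 3, without knockout 4, without wild type 3 or without wild type 4, although all 8 had an unadjusted p under 0.05 in each of these fits. Dmtn alone passed without wild type 1, and Dmtn and Ermap passed without wild type 2. Over all probe sets the numbers were 161 without wild type 1 and 489 without wild type 2. All but Rhag, 7 genes, passed without knockout 2, where 277 of all probe sets did. The median difference lay between -1.16 and -0.86 over these fits.

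Other proteins of the red cell membrane were mostly lower too. Of the 29 genes in this list 26 were measured under the symbol listed. Of the 26, 24 had lower means in the knockout. Icam4, Tmod1 and Stom fell past the threshold in limma, which is 3 of 26 genes against 0.841% of all genes, and 0 were higher. At an unadjusted p under 0.05 there were 19 lower and 0 higher, against 1489 lower and 1165 higher of all 18193 genes. The median difference of the 26 was -0.48, against -0.99 for the 8 genes, and the groups did not overlap, in the lower direction, in 12 of the 26, against 5.02% of all genes.

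Icam4, the adhesion molecule of the Landsteiner-Wiener blood group, had values of 6.85, 7.38, 6.74 and 6.46 in knockout livers 1 to 4. Its wild type values were 8.24, 7.83, 8.28 and 8.04. It fell by 1.24 ± 0.19 (SE), or 2.37-fold, with a limma adjusted p of 0.0313 and no overlap between the groups. Tmod1, the tropomodulin that caps the pointed ends of the short actin filaments, measured 6.45, 6.29, 5.68 and 5.75 in knockout livers 1 to 4. In wild type livers 1 to 4 it measured 7.20, 7.38, 7.10 and 7.13, and the fall of 1.16 ± 0.18 had a limma adjusted p of 0.0315. Stom, stomatin, an integral protein of the red cell membrane, lay between 8.10 and 8.44 in knockout livers and between 8.80 and 9.13 in wild type livers. It fell by 0.71 ± 0.12, with a limma adjusted p of 0.0383.

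The next 6 genes of the list by p did not pass. Kel, the Kell blood group endopeptidase, differed by -1.07 ± 0.22 (SE), Kcnn4, the Gardos potassium channel, by -0.97 ± 0.21 and Rhd, the Rh protein, by -0.88 ± 0.19. Art4, which carries the Dombrock blood group in humans, was at -1.06 ± 0.24, and Add2, the adducin beta chain that caps actin at the junctions, at -0.92 ± 0.22. Piezo1, the mechanosensitive channel, was at -0.42 ± 0.10. In all 6 the knockout livers lay below the wild type livers, and their limma adjusted p values ran from 0.0595 to 0.108. Add3, the widely expressed adducin gamma chain, and Bcam, named after their values were seen, were the 2 genes whose means were higher, at 0.19 ± 0.10 and 0.03 ± 0.18, and both overlapped between the groups.

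The 3 calls in this list rested on single arrays as well. In limma 0 passed when either of knockouts 3 and 4 or either of wild types 3 and 4 was left out, with 15 or 16 of the 26 at an unadjusted p under 0.05, and 1 passed without wild type 1. The number was 6 without knockout 2. Over all probe sets 9 to 38 passed without knockout 3 or 4 or wild type 3 or 4. In those fits 4047 to 4644 probe sets had an unadjusted p under 0.05. The number over all probe sets was 161 without wild type 1 and 277 without knockout 2.

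**Figure D3:**
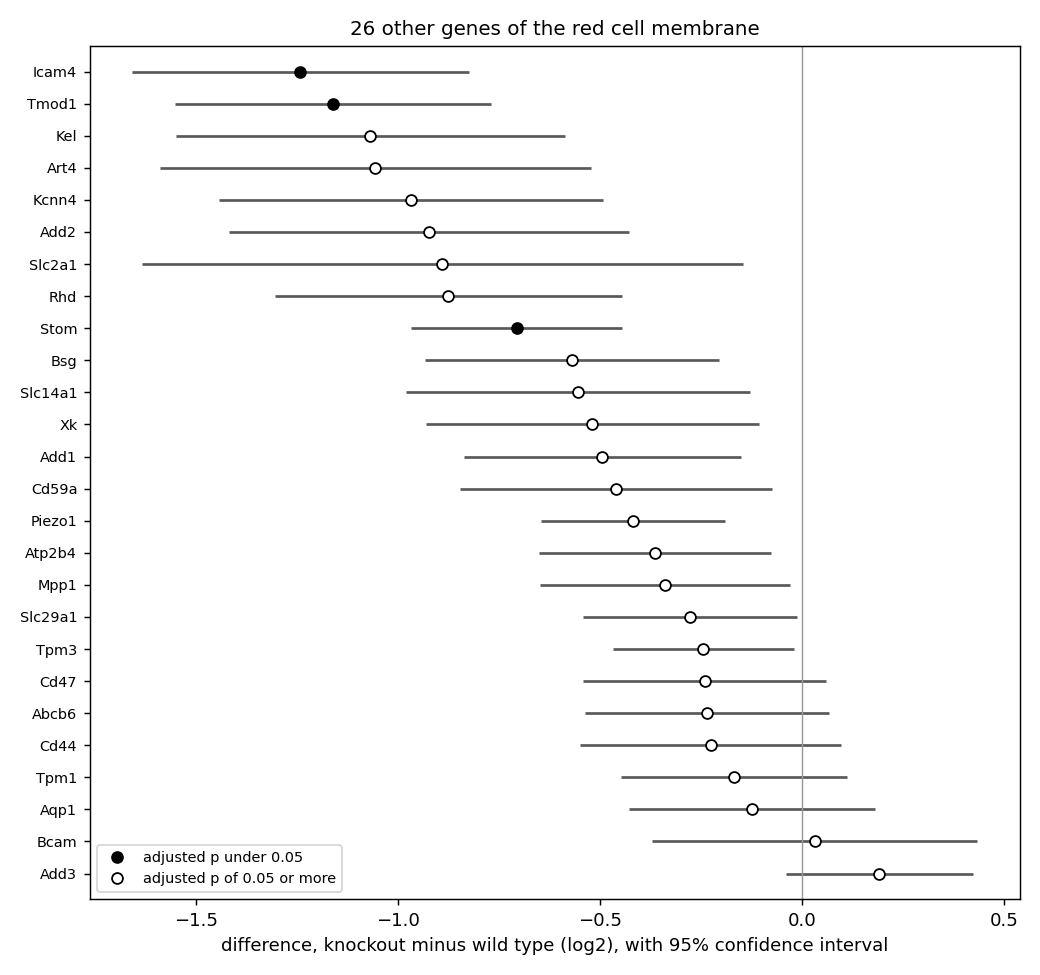
Differences between Mfp2 knockout and wild type livers (log2, horizontal axis) for 26 other genes of the red cell membrane, ordered by size, with 95% confidence intervals from limma. Filled points, Icam4, Tmod1 and Stom, passed the threshold, and 24 of the 26 points lie below 0.

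A further list took relatives of the 8 proteins that serve outside red cells. It holds other ankyrins, spectrins, protein 4.1 relatives, anion exchangers, Rh glycoproteins, transglutaminases, butyrophilins and villins. Of its 19 measured genes 13 had higher and 6 lower means in the knockout, with a median of 0.10, while 9694 of all 18193 genes had higher means. The means of 5 of the 19 lay below the array medians. Epb41l1, a protein 4.1 relative best known from neurons, was the 1 gene that passed, and it rose by 0.80 ± 0.14 (SE) with a limma adjusted p of 0.0441, where 0.308% of all genes were called higher. Its values were 5.16 to 5.62 in the knockout, against 4.47 to 4.98 in wild type. The next 2 by p were named after their values were seen and did not pass. Epb41l5, another protein 4.1 relative, was at 0.85 ± 0.17 and Tgm1, a transglutaminase of skin, at -0.95 ± 0.19, the largest difference of the 19, both without overlap and with limma adjusted p values of 0.0586 and 0.0592.

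Markers of red cell precursors moved with the 8 genes. Of 17 measured erythroid markers, 5 fell past the threshold in limma and 0 rose, with a median of -0.83 and with 15 lower means, where 0.841% of all genes were called lower and 0.308% higher. Nfe2, a transcription factor of red cell and platelet precursors, fell by 0.98 ± 0.12 (SE), with a limma adjusted p of 0.0204. Trim10 fell by 1.32 ± 0.21, Bpgm, which makes the haemoglobin ligand bisphosphoglycerate, by 0.92 ± 0.15, and Hemgn, a nuclear protein of blood precursors, by 0.85 ± 0.15. The differences of 8 of the 17 markers lay within the range of the 8 membrane genes, 1 lay below it and 8 above it. Car1, a carbonic anhydrase named after its values were seen, went against the list at 0.99 ± 0.46, with an adjusted p of 0.440 in limma and overlapping groups. Hba-a1, the other marker with a higher mean, had a probe set at 2.02 over all arrays, below the array medians.

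The mean of the 17 erythroid markers was 8.38, 8.52, 8.04 and 7.998 in knockout livers 1 to 4, against 8.84, 8.90, 8.84 and 8.91 in wild type livers 1 to 4. Its order among the knockout livers was the order of the mean of the 8 membrane genes, with knockout 2 highest, then knockout 1, knockout 3 and knockout 4. With either of knockouts 3 and 4 or either of wild types 3 and 4 left out, 0 of the markers passed in limma, with 15 to 17 at an unadjusted p under 0.05. The number was 2 without wild type 1 and 9 without knockout 2. Over all probe sets the numbers in the same fits were 9 to 38, 161 and 277, against 343 with all arrays. With knockout 3 or 4 or wild type 3 or 4 left out, 4047 to 4644 probe sets had an unadjusted p under 0.05. The part of these markers in the result for the 8 genes was not tested.

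Regulators of red cell genes, a list of 14 that shares 6 genes with the markers, had a median of -0.51. Their means were lower in 12 and higher in 2. At an unadjusted p under 0.05 in limma 10 were lower and 1 higher, against 1489 lower and 1165 higher of all 18193 genes. Of the 14, 2 fell past the threshold, against 0.841% of all genes. They were Nfe2 and Zfpm1, the GATA1 partner FOG1, and Zfpm1 fell by 0.80 ± 0.14 (SE) with a limma adjusted p of 0.0441. Gata1 and Klf1 were at -0.83 ± 0.20 and -0.91 ± 0.19, with limma adjusted p values of 0.101 and 0.0636. Both genes were chosen with their values known, and binding of their factors to the promoters was not measured. Ldb1 and Myb, also named after their values were seen, had the 2 higher means, at 0.36 ± 0.15 and 0.01 ± 0.17. Of 11 cell cycle genes all had lower means, as did 8499 of all 18193 genes, with a median of -0.67. Ccna2 and Rrm2 fell past the threshold in limma, by 0.82 ± 0.14 and 1.02 ± 0.18, which is 2 of 11 against the same 0.841% of all genes.

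Markers of other cell types in newborn liver did not part the groups in this way. Hepatocyte markers had a median of 0.13 over 12 genes, megakaryocyte and platelet markers -0.15 over 7, macrophage markers 0.20 over 9 and neutrophil markers -0.24 over 9. Medians were -0.24 over 7 B cell precursor genes, -0.04 over 7 endothelial genes, -0.10 over 7 stellate cell genes and 0.11 over 4 bile duct genes. In limma 0 genes of these 8 lists passed, and in all 8 the knockout and wild type livers overlapped in the mean of the list. In 2 of the 12 hepatocyte genes every knockout liver lay above every wild type liver, against 3.59% of all genes. At an unadjusted p under 0.05 there were 4 hepatocyte genes and 1 macrophage gene higher, against 1165 of all 18193 genes. Lower were 1 megakaryocyte and 3 B cell precursor genes, against 1489 of all genes. The genes with the lowest p in each were Fgb at 0.31 ± 0.09 (SE), Vwf at -0.45 ± 0.18, C1qa at 0.37 ± 0.16, Ltf at -0.47 ± 0.22, Ebf1 at -0.63 ± 0.20, Lyve1 at 0.61 ± 0.30, Lrat at -0.57 ± 0.32 and Epcam at 0.33 ± 0.18. Their limma adjusted p values ran from 0.187 to 0.558.

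**Figure D4:**
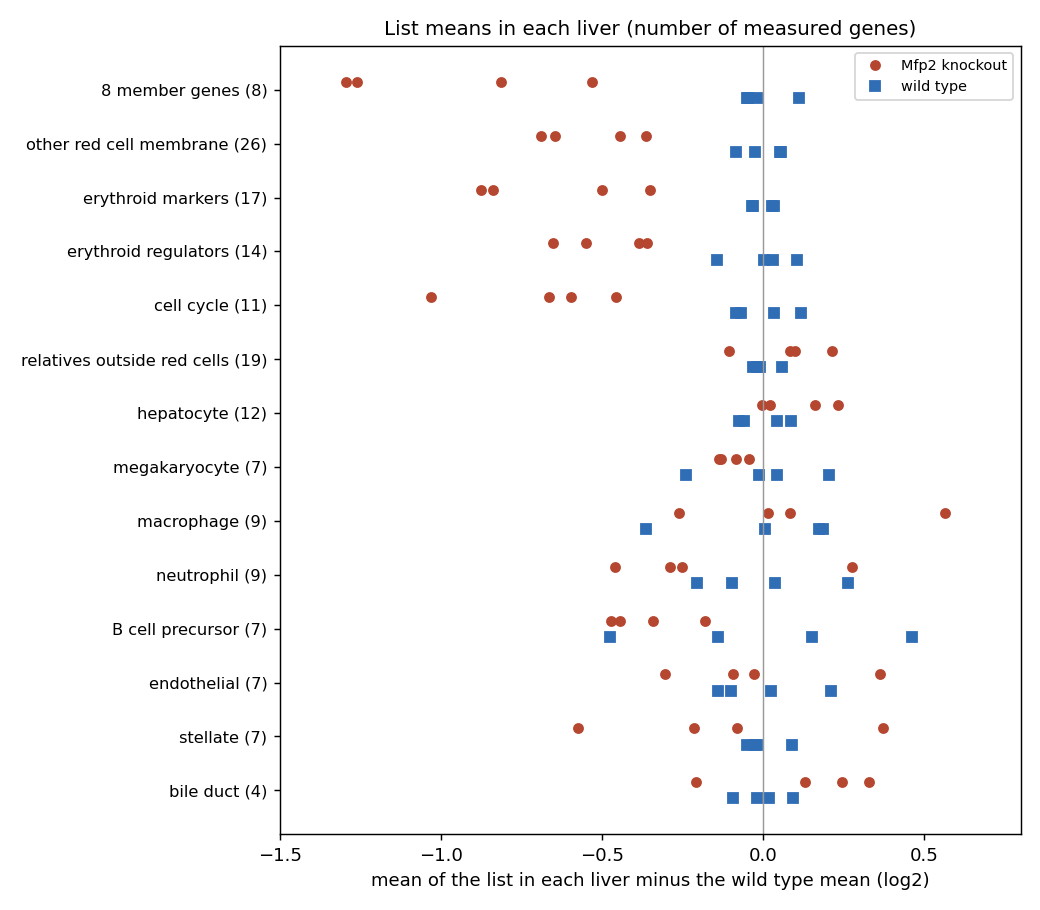
Mean of each gene list in each liver, relative to its wild type mean (log2, horizontal axis), with Mfp2 knockout livers as red circles above and wild type livers as blue squares below. Numbers in parentheses are measured genes. The 8 membrane genes, the other red cell membrane genes, the erythroid markers and regulators and the cell cycle genes part the groups, and the other 9 lists overlap.

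Other genes were ranked by how closely their levels followed the mean of the 8 over the livers, after the mean of each group was subtracted. The ranking took 11806 genes brighter than the median probe set. The highest r of so many can be high by selection alone. The Pearson r over 8 livers, given as a description, was 0.99 for Plekha7, 0.98 for Hemgn and 0.97 for each of Ptp4a3, Ubac1, Fn3k, Eef2kmt, Ugt3a2 and Apol8. Of these 8, Hemgn, Ubac1 and Apol8 passed the threshold, with differences of -0.85, -0.92 and -1.75. Plekha7, a protein of cell junctions, followed the members within the groups but not between them, with a difference of 0.04 and an r of 0.24 before group means were subtracted. Among the 8 members themselves the same r against their own mean ran from 0.56 in Rhag to 0.96 in Gypc.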

How the data were processed

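Per the submitters' processing notes the deposited values were made by the authors with RMA, and their range shows the log2 scale. RMA gives the probe intensities of all arrays 1 distribution before they are combined into probe set values. That step hides a change in total mRNA, and RMA can shrink differences of dim probe sets. The sources used here do not give its software, version or settings. After 64 array controls were left out, 45037 probe sets were tested, of which the array annotation pairs 34945 with 1 gene. Knockout and wild type were compared by a two-sided test without covariates, using lmFit and eBayes of limma 3.58.1 (R 4.3.3), with Benjamini-Hochberg adjustment over all probe sets and a threshold of 0.05. The fit was tested on simulated data with equal variance in both groups, which does not cover the wider knockout spread of the members. The members and lists were chosen with earlier results of these data known, so no p is given for a list. Named genes were the members, those past the threshold or with the lowest p in each list, and the 8 most like the member mean. Add3, Bcam, Car1, Hba-a1, Gata1, Klf1, Ldb1, Myb, Epb41l5 and Tgm1 lie outside this rule and were chosen after their values were seen. Same-numbered arrays deviated together with r of -0.0039, 0.0689, 0.174 and 0.259, which does not show pairing. Differently numbered arrays were not compared, so pairing is not excluded. No block was used, since no label ties replicate numbers to litters or batches. Replicates were taken as separate mice from the design text. Promoters and gene symbols came from RefSeq (GRCm38.p6).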

Additional observations from a re-analysis of the deposited data

Results flagged for a closer look

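Among 34 groups of 4 livers, 2 for each of the 17 probe sets, 2 held a liver far from the other 3, and chance alone flags about 1 in 20 such groups. Slc4a1 probe set 1434502_x_at was 9.68 in knockout liver 4, against 10.39 to 10.46 in the other knockout livers. Sptb probe set 1455226_at was 4.68 in the same liver, against 4.31 to 4.36 in the other knockout livers. In the first the liver was low and in the second it was high.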

How the results depend on the processing

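Alternatives were fixed with earlier results known, and most calls lay close to the threshold. Of the 8 membrane genes 4 passed in limma. This became 7 with 1 probe set per gene, the Y-linked covariate or replicates 3 and 4 alone. It was also 7 with replicates 1 and 2 set as a block against 3 and 4. The count was 8 with array weights, 6 with the mean of a gene's probe sets and 5 with the filter on dim probe sets. It stayed at 4 with median centring, trended variance or robust variance. After quantile normalization again 3 passed, and Rhag was lost at a limma adjusted p of 0.0569. With replicates 1 and 2 alone 0 passed, while 7 had an unadjusted p under 0.05, as did 1813 of all 45037 probe sets. The replicate block used numbers that no label ties to litters or batches. With that block 0 of the 8, 0 of the other membrane genes, 0 of the erythroid markers and 15 probe sets passed. At an unadjusted p under 0.05 there were 8, 18, 16 and 5626. Without each array in turn the count ran from 0 to 7. The median difference was -0.60 with replicates 1 and 2 alone, -1.37 with 3 and 4 alone, and -1.16 to -0.86 without each array. Other membrane genes, 3 as reported, were 7 with 1 probe set per gene or with the mean of a gene's probe sets, 8 with the Y-linked covariate or array weights, 6 with the set block or replicates 3 and 4 alone, 0 with replicates 1 and 2 alone (7 unadjusted), and 0 to 6 without each array. Erythroid markers, 5 as reported, were 8 with 1 probe set per gene, the Y-linked covariate, the set block or replicates 3 and 4 alone, 14 with array weights, 9 with the mean of probe sets, 3 after quantile normalization again, 0 with replicates 1 and 2 alone (8 unadjusted), and 0 to 9 without each array. With the filter on dim probe sets 4 other membrane genes and 6 markers passed, and quantile normalization again left 2 other membrane genes. Over all probe sets 343 passed, against 527 with the Y-linked covariate, 514 with the set block and 461 with replicates 3 and 4 alone. The number was 914 with array weights, 442 with the filter on dim probe sets and 230 after quantile normalization again. It was 375 with median centring, 271 with trended variance and 359 with robust variance. It was 4 with replicates 1 and 2 alone and 9 to 489 without each array. Over genes 209 passed, against 397 with p adjusted over 1 probe set per gene and 383 with the mean of probe sets. The dim Ank1 probe set 1443291_at turned sign at -0.0118 with the Y-linked covariate, -0.0060 with array weights, -0.0062 after quantile normalization again, and -0.11 with replicates 3 and 4 alone, and between -0.11 and 0.0729 without each array, and Sptb 1455226_at at -0.0607 with replicates 1 and 2 alone. The filter on dim probe sets gave no value for Ank1 1443291_at and 1452512_a_at, which it left out. The cause of these shifts was not tested, and some of the fits held fewer arrays.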
